A study of Mus musculus with 18 samples.

Results

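The 43 genes described here encode the machinery that removes the poly(A) tail, the cap and the body of messenger RNA in mouse cells. They were taken by gene symbol from a list of CCR4-NOT, PAN, decapping, exonuclease, exosome and nonsense-mediated decay genes, out of 56413 genes in the count table. All 43 were found, and all 43 were among the 14076 genes that passed the filter on low counts. Their estimated counts ran from 13.0 in a library (Dcp1b) to 10149.7 (Pabpc1).

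Messenger RNA in the cytoplasm usually loses its poly(A) tail first, through the PAN2-PAN3 and CCR4-NOT deadenylases. The shortened molecule is then decapped by DCP2 and digested from the 5′ end by XRN1, or digested from the 3′ end by the exosome, a barrel of inactive subunits with attached nucleases. The exosome also works in the nucleus, and of its nucleases on the list, DIS3 and EXOSC10, the latter is a nuclear enzyme. Tristetraprolin (TTP, encoded by Zfp36) is an RNA-binding protein that brings CCR4-NOT to mRNAs with AU-rich elements, among them many cytokine mRNAs of activated immune cells. Nonsense-mediated decay, run by UPF1 and the SMG proteins, uses the same downstream enzymes.

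The study asked how loss of TTP alters gene expression in antigen-stimulated basophils. Bone marrow of TTP-KO and WT mice was grown for 7 days with IL-3 (0.3 ng/mL), TNP-specific IgE (1 µg/mL) was added on day 6, and CD49b+ cells were enriched with magnetic beads. Samples of 50000 cells then received TNP-coupled ovalbumin (TNP-OVA), which crosslinks the bound IgE, or plain ovalbumin (OVA) as control, both at 10 ng/mL. Polyadenylated RNA was sequenced in 6 groups of 3 libraries each: TTP-KO and WT cells after OVA for 2 h (called control below), after TNP-OVA for 2 h and after TNP-OVA for 4 h. Allele, strain, age and sex are not in the labels used here. Nor is it stated whether a group's 3 libraries are separate animals or cultures, so a p-value reflects library-to-library spread that could be technical. The only control is at 2 h, so antigen and time in culture cannot be told apart at 4 h.

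Library totals lay between 5516580 and 12733172 estimated counts. The summed level of 10 basophil markers was between 23900 and 32300 CPM (estimated counts scaled to library size with TMM factors) in each library, while 4 T cell markers summed to at most 8.36 CPM and 4 NK cell markers, 1 of them at 0 in every library, to at most 4.24 CPM. Other cell types were not as low. Dendritic cell markers summed to 2560 to 4280 CPM and neutrophil markers to 845 to 2290 CPM. Monocyte and macrophage markers summed to 1290 to 1660 CPM, megakaryocyte and platelet markers to 1170 to 1640 CPM and eosinophil markers to 102 to 208 CPM. Zfp36 itself averaged 224 ± 4.46 CPM in TTP-KO control libraries and 237 ± 11.4 CPM in WT control libraries, 564 ± 9.92 CPM in TTP-KO and 448 ± 10.6 CPM in WT libraries at 2 h, and 324 ± 23.9 CPM in TTP-KO and 295 ± 22.7 CPM in WT libraries at 4 h (SD, n = 3 each). In TTP-KO over WT libraries Zfp36 RNA was higher at 2 h on the log2 scale (0.33 ± 0.05, edgeR adjusted p = 0.000316). At 4 h the groups overlapped and it did not pass (0.14 ± 0.05, edgeR adjusted p = 0.151). What the knockout removed is not stated, so this gene gives no check of the labels. TTP-KO below means a library labelled so. In bulk RNA, fewer cells of a type and less RNA per cell cannot be told apart.

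Antigen changed the levels of many of these genes, but none of them by 2-fold. In TTP-KO cells 19 of 43 members passed the test at 2 h over control (44.2%, edgeR adjusted p below 0.05), 7 higher and 12 lower, against a background of 34.5% of all genes tested, 17.8% higher and 16.6% lower. In WT cells 17 passed at 2 h (39.5%), 9 higher and 8 lower, with a background of 35.1%, 17.8% higher and 17.3% lower. At 4 h over control 12 members passed in TTP-KO cells (27.9%), 8 higher and 4 lower, against 35% of all genes, 18.3% higher and 16.7% lower. The count in WT cells at 4 h was 19 (44.2%), 14 higher and 5 lower, against 38% of all genes, 19.6% higher and 18.4% lower. Taken in both directions together, these shares stood near the background. By direction, the 14 higher in WT cells at 4 h and the 12 lower in TTP-KO cells at 2 h were above it. Of the 14 higher genes at 4 h in WT cells, 7 encode exosome subunits. That split of 14 and 5 was 7 higher and 7 lower without WT control library 1, 7 and 4 without WT 4 h library 2, and 9 and 4 with DESeq2.

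Between 2 h and 4 h of antigen, 13 members passed in TTP-KO cells, 10 higher and 3 lower, with a background of 30.8%, 14.6% higher and 16.2% lower. In WT cells 14 passed, 9 higher and 5 lower, against 31.1%, 15.2% higher and 15.9% lower. The median member differed by 0.12 in TTP-KO and 0.13 in WT cells on the log2 scale, against 0.03 and 0.02 over all genes tested. With RLE scaling in place of TMM the split between 2 h and 4 h in TTP-KO cells was 7 higher and 5 lower, and the split at 2 h over control in WT cells was 10 higher and 5 lower. Members past the threshold in at least 1 of the 3 time comparisons numbered 24 in TTP-KO cells (55.8%, against 53.2% of all genes) and 29 in WT cells (67.4%, against 55% of all genes). Of the 96 calls in all comparisons, 52 held under every alternative tried and 44 ended when some library was left out.

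**Figure D1:**
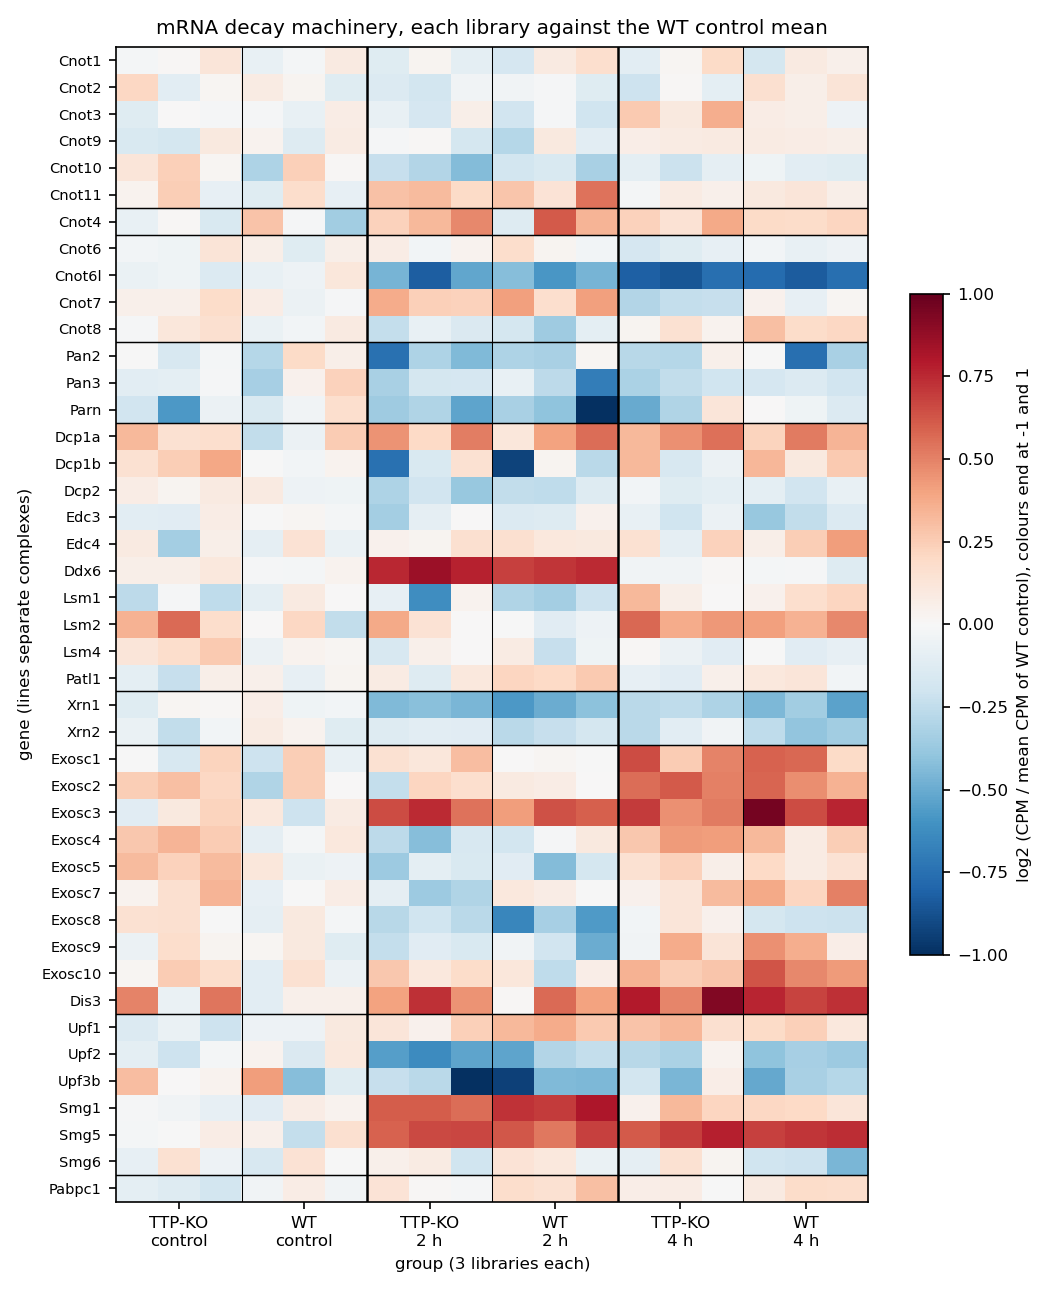
Each row is 1 of the 43 genes and each column 1 of 18 libraries, coloured by the log2 ratio of its CPM to the mean CPM of the 3 WT control libraries, with colours ending at -1 and 1; horizontal lines separate complexes. Ddx6 and Smg1 are high in the 6 libraries at 2 h, Smg5 and Exosc3 in the 12 libraries at 2 h and 4 h, and Cnot6l is low in those 12.

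Pabpc1, which encodes the protein that coats the poly(A) tail, was the most abundant member, with a mean of 724 CPM over the 18 libraries. TTP-KO libraries held 649, 638 and 612 CPM in control, 763, 703 and 689 CPM at 2 h and 729, 734 and 694 CPM at 4 h. WT libraries held 677, 732 and 677 CPM in control, 786, 775 and 855 CPM at 2 h and 738, 789.5 and 785 CPM at 4 h. Stimulated and control libraries did not overlap in either genotype, and TTP-KO libraries lay below WT libraries in each condition. The rise at 2 h was small in both TTP-KO (0.18 ± 0.05, edgeR adjusted p = 0.00235) and WT cells (0.21 ± 0.05, edgeR adjusted p = 0.000491). At 4 h it passed in TTP-KO (0.18 ± 0.05, edgeR adjusted p = 0.00225) and in WT cells (0.15 ± 0.05, edgeR adjusted p = 0.0109), where the call ended without WT 4 h library 2 or WT control library 3 (adjusted p from 0.0524 to 0.111). Without the TMM factors given below, the Pabpc1 mean at 2 h lay below the control mean in both genotypes.

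Among the 4 nucleases of CCR4-NOT, Cnot6l fell in both genotypes, Cnot7 was lower at 4 h than at 2 h in both, Cnot8 was higher at 4 h than at 2 h in both, and Cnot6 passed in no comparison. Cnot6l and Cnot6 encode the nucleases related to yeast Ccr4, and Cnot7 and Cnot8 those related to yeast Caf1. Cnot6l stood at 69.5, 70.7 and 66.2 CPM in TTP-KO control libraries, 52.6, 41.0 and 50.9 CPM at 2 h and 41.3, 40.1 and 43.1 CPM at 4 h. In WT cells it stood at 69.3, 70.1 and 78.9 CPM in control, 54.1, 48.5 and 52.6 CPM at 2 h and 42.7, 40.8 and 43.1 CPM at 4 h. No stimulated library reached the lowest control library of its genotype. The fall reached -0.73 ± 0.08 on the log2 scale at 4 h in TTP-KO (edgeR adjusted p = 3.28e-08) and -0.79 ± 0.08 in WT cells (edgeR adjusted p = 4.83e-09), the largest change of any member at 4 h. At 2 h it was -0.52 ± 0.08 in TTP-KO and -0.50 ± 0.08 in WT cells, and these 4 calls held under every alternative. WT cells showed a further decrease between 2 h and 4 h (-0.29 ± 0.08, edgeR adjusted p = 0.0077).

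Cnot6l is also 1 of 2 members whose 3′ UTR holds the nonamer TTATTTATT, the extended AU-rich element that TTP is known to bind. The other is Edc3, an enhancer of decapping. The shorter core TATTTAT was in the 3′ UTR of 9 of 43 members (20.9%), against 28.3% of 11520 tested genes with a 3′ UTR, and the nonamer in 4.65% against 7.5%. Both searches used the sense strand of the principal GENCODE M21 transcript, and every nonamer holds the shorter core. The sites are shown in their surroundings, with the nonamer in capitals, at position 6001 of the 6847-base Cnot6l 3′ UTR (chromosome 5) and position 2068 of the 4004-base Edc3 3′ UTR (chromosome 9).
Cnot6l: agggaagagaTTATTTATTtttgtttcct
Edc3: agcttctagcTTATTTATTggcttgcctt
Neither gene passed between genotypes. Cnot6l was -0.08 ± 0.08 in TTP-KO over WT cells in control, -0.10 ± 0.09 at 2 h and -0.02 ± 0.08 at 4 h, and Edc3 -0.04 ± 0.10, -0.06 ± 0.11 and 0.15 ± 0.10 on the log2 scale (edgeR adjusted p from 0.481 to 0.939). A match is a description of the sequence and not a measured site.

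Cnot7 was highest at 2 h in both genotypes. TTP-KO libraries had 61.6, 61.4 and 67.3 CPM in control, 76.9, 69.9 and 69.5 CPM at 2 h and 48.6, 50.2 and 50.5 CPM at 4 h. WT libraries had 62.3, 57.0 and 58.8 CPM in control, 78.9, 66.8 and 78.9 CPM at 2 h and 61.3, 56.0 and 60.3 CPM at 4 h. The 2 h libraries lay above the control libraries in each genotype, and the TTP-KO libraries at 4 h below all others. At 2 h the WT change passed (0.33 ± 0.07, edgeR adjusted p = 0.000677) and the TTP-KO change did not (0.18 ± 0.07, edgeR adjusted p = 0.0534). From 2 h to 4 h Cnot7 fell in both, by 0.54 ± 0.07 in TTP-KO cells (edgeR adjusted p = 1.72e-06) and 0.34 ± 0.07 in WT cells (edgeR adjusted p = 0.000597). At 4 h it was below control in TTP-KO cells (-0.35 ± 0.07, edgeR adjusted p = 0.000359) and near control in WT cells (-0.01 ± 0.07, edgeR adjusted p = 0.957).

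Cnot8 rose between 2 h and 4 h in WT cells (0.43 ± 0.08, edgeR adjusted p = 0.000185). In TTP-KO cells it fell at 2 h (-0.24 ± 0.09, edgeR adjusted p = 0.029), a call that ended without TTP-KO 2 h library 1 or 3 or TTP-KO control library 2 or 3, or with DESeq2 or only the compared libraries (adjusted p from 0.0521 to 0.124), and its rise to 4 h (0.22 ± 0.09, edgeR adjusted p = 0.0491) ended without any 1 of the 6 libraries compared, and with RLE scaling, DESeq2, a replicate block or only the compared libraries (adjusted p from 0.0521 to 0.176). The WT value at 4 h over control was 0.23 ± 0.08, edgeR adjusted p = 0.0291, which did not hold without WT 4 h library 1 or 2 or WT control library 1 or 2, or with DESeq2 (adjusted p from 0.058 to 0.111). Cnot6, the most abundant of the 4 nuclease mRNAs both in CPM and per length, did not pass in any comparison, with group means between 100.6 and 114 CPM.

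Of the 6 scaffold and core genes of CCR4-NOT, 3 passed in no comparison. These were Cnot1, the scaffold on which the complex is built, Cnot2, part of its NOT module, and Cnot9, a docking subunit for mRNA-specific adaptors, and Cnot1 had group means between 55.3 and 59.4 CPM. Cnot3, a partner of Cnot2 in the NOT module, averaged 33.9 ± 1.56 CPM in TTP-KO control, 33.5 ± 2.6 CPM at 2 h and 41.3 ± 3.83 CPM at 4 h, where it was higher than control (0.28 ± 0.09, edgeR adjusted p = 0.0112). That call ended without TTP-KO 4 h library 3 or TTP-KO control library 1 (adjusted p from 0.0523 to 0.0773). Cnot3 was also higher at 4 h than at 2 h in TTP-KO cells (0.31 ± 0.09, edgeR adjusted p = 0.00875), a call that ended without TTP-KO 2 h library 2 or TTP-KO 4 h library 3 (adjusted p from 0.0615 to 0.0714). Its WT means were 34.9 ± 1.78, 31.9 ± 2.35 and 35.5 ± 1.62 CPM and did not pass.

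Cnot10 and Cnot11, which form a module at the N-terminal part of CNOT1, each passed at 2 h in 1 genotype, in opposite directions. Cnot10 fell in TTP-KO cells (-0.44 ± 0.13, edgeR adjusted p = 0.00798), while its WT value was -0.20 ± 0.13. Cnot11 rose in WT cells (0.34 ± 0.10, edgeR adjusted p = 0.0102), with overlapping groups, and its call ended without WT 2 h library 3 or WT control library 1 or 3 (adjusted p from 0.0519 to 0.138). Its value in TTP-KO cells was 0.20 ± 0.10. Cnot4, a ubiquitin ligase that associates with the complex, rose at 2 h in TTP-KO cells (0.42 ± 0.15, edgeR adjusted p = 0.0372), which ended without TTP-KO 2 h library 2 or 3 or TTP-KO control library 1, 2 or 3, or with a replicate block (adjusted p from 0.0569 to 0.148), and had a somewhat smaller estimate in WT cells, which did not pass (0.32 ± 0.15, edgeR adjusted p = 0.11).

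Of the other deadenylases, Pan2, the catalytic subunit, and Pan3, its RNA-binding partner, passed in no comparison. All 3 of Pan2, Pan3 and Parn had negative estimates at 2 h in both genotypes, from -0.43 to -0.13 in TTP-KO and from -0.57 to -0.18 in WT cells. Parn, a poly(A)-specific ribonuclease, was the lowest member of this class, with 6.27, 5.94 and 3.77 CPM in WT cells at 2 h, against 7.05, 7.64 and 8.83 CPM in WT control. TTP-KO libraries held 6.13, 6.38 and 5.45 CPM at 2 h and 6.86, 5.27 and 7.51 CPM in control, and these overlapped. The WT decrease (-0.57 ± 0.22, edgeR adjusted p = 0.0405) did not hold without WT 2 h library 3 or WT control library 2 or 3, or with no filter, DESeq2, a replicate block or only the compared libraries (adjusted p from 0.0531 to 0.247), and WT 2 h library 3, at 3.77 CPM, was the lowest of the 18 libraries.

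Ddx6 had the largest change at 2 h, relative to its standard error, of all members in both genotypes. It encodes a helicase that links CCR4-NOT and translational repression to decapping. Levels in TTP-KO libraries were 358, 359 and 370.2 CPM in control, 581, 625 and 587 CPM at 2 h and 336, 336 and 348 CPM at 4 h. WT libraries gave 341, 339.6 and 353 CPM in control, 555, 565 and 578 CPM at 2 h and 341, 341 and 316 CPM at 4 h. At 2 h each of the 6 stimulated libraries lay far above every control library, and at 4 h all 6 were back at or just under the control level. The rise at 2 h was 0.72 ± 0.04 in TTP-KO (edgeR adjusted p = 1.68e-14) and 0.71 ± 0.04 in WT cells (edgeR adjusted p = 2.11e-14). The following fall to 4 h was -0.81 ± 0.04 in TTP-KO (edgeR adjusted p = 3.57e-15) and -0.77 ± 0.04 in WT cells (edgeR adjusted p = 1.19e-14), and at 4 h neither genotype differed from control past the threshold.

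**Figure D2:**
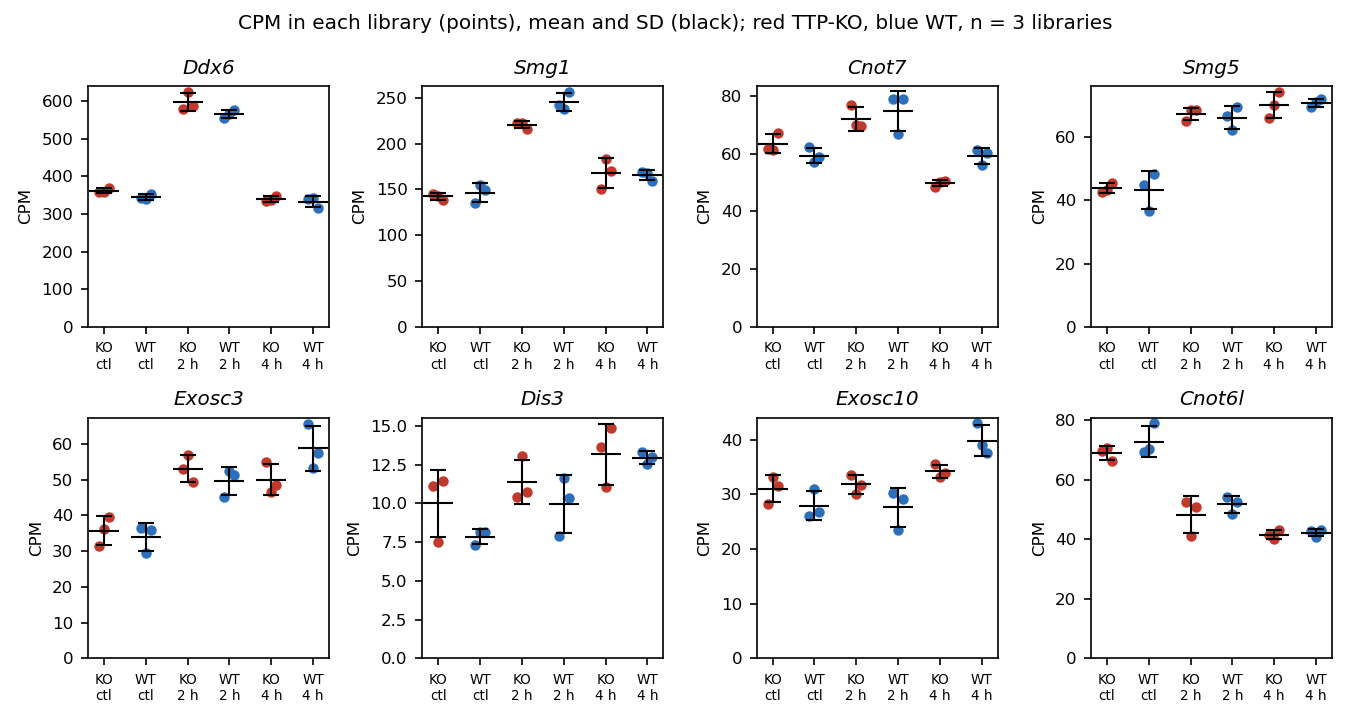
Points are the CPM of each library for 8 genes, with the mean and SD of 3 libraries in black, TTP-KO in red and WT in blue, in control (ctl) and at 2 h and 4 h of TNP-OVA. Ddx6, Smg1 and Cnot7 peak at 2 h, and Smg5 and Exosc3 stay high at 4 h. Exosc10 and Dis3 have their highest means at 4 h in each genotype, and only their WT rises over control passed. Cnot6l is lowest at 4 h.

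The decapping enzyme itself went the other way. Dcp2 averaged 46.5 ± 0.988 CPM in TTP-KO control, 36.3 ± 2.33 CPM at 2 h and 42.0 ± 1.51 CPM at 4 h, and in WT cells 44.5 ± 2.45, 38.5 ± 1.92 and 40.9 ± 1.71 CPM. It fell at 2 h in TTP-KO cells (-0.35 ± 0.08, edgeR adjusted p = 0.000656) and in WT cells (-0.21 ± 0.08, edgeR adjusted p = 0.0409), where the call ended without WT 2 h library 1 or 2 or WT control library 1, or with RLE scaling, no filter, DESeq2 or only the compared libraries (adjusted p from 0.0724 to 0.166). The return to 4 h in TTP-KO cells (0.21 ± 0.08, edgeR adjusted p = 0.0419) ended without TTP-KO 2 h library 1 or 3 or TTP-KO 4 h library 1 or 3, or with RLE scaling, no filter, DESeq2 or only the compared libraries (adjusted p from 0.0556 to 0.179).

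Its cofactor Dcp1a had positive estimates at both times in both genotypes and passed in WT cells at 2 h (0.37 ± 0.14, edgeR adjusted p = 0.0359) and 4 h (0.36 ± 0.13, edgeR adjusted p = 0.0303), with overlapping groups. These calls ended without WT 2 h library 2 or 3 or WT control library 1 or 2, or with only the compared libraries (adjusted p from 0.0531 to 0.21) at 2 h and without WT 4 h library 2 or 3 or WT control library 1 or 2, or with DESeq2 (adjusted p from 0.0526 to 0.201) at 4 h. Dcp1b, the related cofactor, was the least abundant member, with 2.14 to 5.31 CPM, and passed in no comparison. Edc4, the scaffold of the decapping complex, and Patl1, which bridges deadenylation and decapping, did not pass either, while Edc3 was slightly lower in WT cells at 4 h (-0.25 ± 0.10, edgeR adjusted p = 0.0472). That call ended without WT 4 h library 1 or 2 or WT control library 1, 2 or 3, or with no filter, DESeq2 or only the compared libraries (adjusted p from 0.051 to 0.202).

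The 3 LSm genes on the list encode parts of the ring that binds shortened 3′ ends before decapping; Lsm2 and Lsm4 also belong to the nuclear ring on U6 RNA. Lsm2 averaged 25.3 ± 3.42, 22.2 ± 2.93 and 27.0 ± 1.99 CPM in TTP-KO control, 2 h and 4 h libraries and 19.5 ± 3.05, 18.8 ± 0.681 and 26.0 ± 1.22 CPM in the WT series. It rose in WT cells at 4 h over control (0.43 ± 0.12, edgeR adjusted p = 0.00437), a call lost without WT control library 3 (adjusted p = 0.0603), and over 2 h (0.47 ± 0.12, edgeR adjusted p = 0.00349). Lsm1 rose from 2 h to 4 h in WT cells (0.42 ± 0.12, edgeR adjusted p = 0.00928) and in TTP-KO cells (0.34 ± 0.12, edgeR adjusted p = 0.0362), the second call ending without TTP-KO 2 h library 2 or TTP-KO 4 h library 1, or with RLE scaling, DESeq2, a replicate block or only the compared libraries (adjusted p from 0.0505 to 0.37). Over control, Lsm1 was higher at 4 h in TTP-KO cells (0.31 ± 0.12, edgeR adjusted p = 0.046), which ended without TTP-KO 4 h library 1 or 2 or TTP-KO control library 1 or 3, or with DESeq2 or a replicate block (adjusted p from 0.0541 to 0.276).
Lsm4 fell in TTP-KO cells at 2 h (-0.22 ± 0.08, edgeR adjusted p = 0.0234) and 4 h (-0.24 ± 0.07, edgeR adjusted p = 0.0114). The 2 h call ended without TTP-KO 2 h library 1 or TTP-KO control library 3, or with DESeq2 (adjusted p from 0.0655 to 0.155) and the 4 h call without TTP-KO 4 h library 3 or TTP-KO control library 3 (adjusted p from 0.0615 to 0.0716).

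Both 5′ to 3′ exonucleases were lower in stimulated WT cells. Xrn1, the cytoplasmic enzyme that digests decapped mRNA, averaged 34.9 ± 1.88 CPM in TTP-KO control, 26.2 ± 0.392 CPM at 2 h and 29.3 ± 0.554 CPM at 4 h. Its WT means were 35.5 ± 1.39 CPM in control, 25.3 ± 1.39 CPM at 2 h and 26.1 ± 1.67 CPM at 4 h. In each genotype every stimulated library was below every control library. Xrn1 fell at 2 h by 0.41 ± 0.09 in TTP-KO (edgeR adjusted p = 0.000316) and 0.49 ± 0.09 in WT cells (edgeR adjusted p = 3.97e-05). At 4 h it was still lower in TTP-KO (-0.25 ± 0.08, edgeR adjusted p = 0.017), a call lost without TTP-KO 4 h library 3 or TTP-KO control library 2 or 3, or with no filter or DESeq2 (adjusted p from 0.055 to 0.0836), and in WT cells (-0.44 ± 0.08, edgeR adjusted p = 8.09e-05).
Xrn2, the nuclear enzyme, fell at 4 h in WT cells (-0.33 ± 0.08, edgeR adjusted p = 0.00243). Its smaller WT decrease at 2 h (-0.22 ± 0.09, edgeR adjusted p = 0.048) ended without WT 2 h library 1, 2 or 3 or WT control library 1 or 2, or with RLE scaling, no filter, DESeq2, a replicate block or only the compared libraries (adjusted p from 0.0562 to 0.178). In TTP-KO cells Xrn2 averaged 40.4 ± 3.18 CPM in control, 40.3 ± 0.278 CPM at 2 h and 39.9 ± 3.26 CPM at 4 h and did not pass. The difference between genotypes in its 4 h response was 0.31 ± 0.12, edgeR adjusted p = 0.313.

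The exosome genes were mostly higher at 4 h in WT cells. In WT cells 7 of 10 rose at 4 h over control and none fell, with a median log2 fold change of 0.42, against -0.01 over all genes tested, of which 19.6% were called higher. In TTP-KO cells 2 of 10 rose, near the 18.3% of all genes called higher, with a median of 0.12 against 0.01 over all genes. From 2 h to 4 h, 5 of 10 rose in TTP-KO cells (median 0.31), against 14.6% of all genes, and 6 of 10 in WT cells (median 0.38), against 15.2%, and none fell. The WT count at 4 h over control rested in part on single libraries. It was 3 without WT control library 1, 4 without WT 4 h library 1, 5 without WT control library 3 or WT 4 h library 2, and 5 with DESeq2. The count from 2 h to 4 h was 3 without WT 2 h library 1 or 3, 4 without WT 2 h library 2 or WT 4 h library 1 or 2, and 3 with DESeq2. In TTP-KO cells that count was 2 without TTP-KO 2 h library 1, 3 without TTP-KO 2 h library 3 or TTP-KO 4 h library 2, and 3 with DESeq2. At 4 h over control it was 1 without TTP-KO control library 1 or 2 or TTP-KO 4 h library 1, and 3 without TTP-KO control library 3 or TTP-KO 4 h library 2. In WT cells 9 of the 10 estimates at 4 h over control were positive under every alternative. Beside these values, 5 of 9 neutrophil markers were lower at 4 h than in control in WT cells, against 18.4% of all genes. Their summed levels were 845 to 941 CPM at 4 h and 1100 to 1270 CPM in control. Of 10 basophil markers 4 were higher and 6 lower in that comparison, and 2 of 4 megakaryocyte and platelet markers were lower. The part of such cells in the WT exosome values was not tested.

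**Figure D3:**
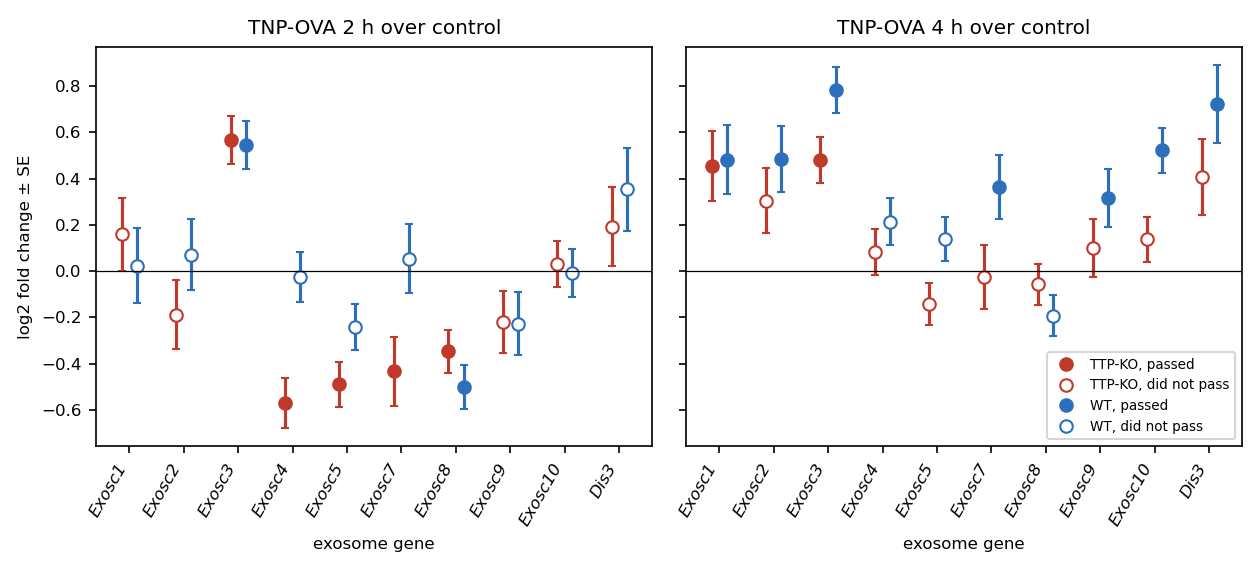
Log2 fold change with its standard error for the 10 exosome genes at 2 h over control (left) and 4 h over control (right), TTP-KO in red and WT in blue; filled points passed the threshold. At 4 h, 9 of 10 WT estimates are above 0, with Exosc3 and Dis3 highest, while 7 of 10 TTP-KO estimates are.

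Exosc1, Exosc2 and Exosc3 encode the cap of the barrel, which RNA enters. Exosc3 rose early and stayed up. TTP-KO libraries had 31.4, 36.2 and 39.5 CPM in control, 53.2, 56.9 and 49.3 CPM at 2 h and 54.9, 46.6 and 48.5 CPM at 4 h. WT libraries had 36.4, 29.4 and 35.8 CPM in control, 45.2, 52.5 and 51.4 CPM at 2 h and 65.6, 53.2 and 57.5 CPM at 4 h. No stimulated library overlapped its controls. At 2 h the change was 0.57 ± 0.10 in TTP-KO (edgeR adjusted p = 5.51e-05) and 0.55 ± 0.10 in WT cells (edgeR adjusted p = 0.000107), and at 4 h it was 0.48 ± 0.10 in TTP-KO (edgeR adjusted p = 0.000355) and 0.78 ± 0.10 in WT cells (edgeR adjusted p = 2.64e-07).

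The other cap genes followed at 4 h. Exosc2 had 12.0, 12.4 and 11.6 CPM in TTP-KO control, 8.55, 11.7 and 11.4 CPM at 2 h and 14.8, 15.4 and 14.3 CPM at 4 h. In WT cells it had 8.21, 12.0 and 10.1 CPM in control, 10.7, 10.6 and 10.1 CPM at 2 h and 15.1, 13.9 and 12.8 CPM at 4 h. Libraries at 4 h lay above the controls in each genotype. Exosc2 was higher at 4 h than in control in WT cells (0.48 ± 0.14, edgeR adjusted p = 0.00766), a call lost without WT control library 1 (adjusted p = 0.0712), and not past the threshold in TTP-KO cells (0.31 ± 0.14, edgeR adjusted p = 0.0923). From 2 h to 4 h it rose in TTP-KO cells (0.49 ± 0.14, edgeR adjusted p = 0.0098), a call lost without TTP-KO 2 h library 1 (adjusted p = 0.0826). Exosc1 rose by similar amounts at 4 h in TTP-KO (0.45 ± 0.15, edgeR adjusted p = 0.0184) and WT cells (0.48 ± 0.15, edgeR adjusted p = 0.0116), the WT groups overlapping. The TTP-KO call ended without TTP-KO 4 h library 1 or TTP-KO control library 1 or 2 (adjusted p from 0.0519 to 0.118) and the WT call without WT 4 h library 1 or 2 or WT control library 1 (adjusted p from 0.0575 to 0.0714). WT increases from 2 h to 4 h in Exosc1 (0.46 ± 0.15, edgeR adjusted p = 0.0222) and Exosc2 (0.41 ± 0.14, edgeR adjusted p = 0.0293) ended with DESeq2 and without any library but WT 4 h library 3 (adjusted p from 0.0584 to 0.115).

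Exosc4, Exosc5, Exosc7, Exosc8 and Exosc9 encode ring subunits that line the channel. At 2 h, 4 of these 5 fell in TTP-KO cells, against 16.6% of all genes, and 1, Exosc8, in WT cells, against 17.3%, and no exosome gene passed the test of the difference between genotypes. Exosc4 had 26.0, 27.2 and 25.7 CPM in TTP-KO control, 17.95, 16.0 and 19.3 CPM at 2 h and 26.1, 28.9 and 28.7 CPM at 4 h. WT libraries had 20.2, 21.3 and 23.2 CPM in control, 18.97, 21.4 and 23.1 CPM at 2 h and 26.9, 22.8 and 25.6 CPM at 4 h. The decrease at 2 h passed in TTP-KO cells (-0.57 ± 0.11, edgeR adjusted p = 9.47e-05), where 2 h and control libraries did not overlap, and the WT estimate was near 0 (-0.03 ± 0.11, edgeR adjusted p = 0.882). Exosc4 then rose to 4 h in TTP-KO cells (0.65 ± 0.11, edgeR adjusted p = 1.96e-05).

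Exosc5 fell at 2 h in TTP-KO cells (-0.49 ± 0.10, edgeR adjusted p = 0.000199), with a WT estimate of -0.24 ± 0.10, and rose from 2 h to 4 h in WT (0.38 ± 0.10, edgeR adjusted p = 0.00323) and in TTP-KO cells (0.35 ± 0.10, edgeR adjusted p = 0.00734), where the call ended without TTP-KO 2 h library 1 (adjusted p = 0.061). Exosc8 fell at 2 h in both TTP-KO (-0.35 ± 0.09, edgeR adjusted p = 0.00356) and WT cells (-0.50 ± 0.09, edgeR adjusted p = 9.93e-05). Its rise to 4 h passed in TTP-KO cells (0.29 ± 0.09, edgeR adjusted p = 0.016), except without TTP-KO 2 h library 1 or 3 or TTP-KO 4 h library 2, or with DESeq2 (adjusted p from 0.0529 to 0.0636), and in WT cells (0.31 ± 0.09, edgeR adjusted p = 0.0126), except without WT 2 h library 1 or 3, or with DESeq2 (adjusted p from 0.0547 to 0.122). Exosc8 was the only exosome gene below control at 4 h in WT cells, at -0.19 ± 0.09, which did not pass.

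Exosc7 fell at 2 h in TTP-KO cells (-0.43 ± 0.15, edgeR adjusted p = 0.0231), had a WT estimate of 0.05 ± 0.15 at 2 h, and was higher at 4 h in WT cells (0.36 ± 0.14, edgeR adjusted p = 0.0389). The first call ended without TTP-KO 2 h library 2 or 3 or TTP-KO control library 3, or with no filter, DESeq2 or only the compared libraries (adjusted p from 0.0501 to 0.114) and the second without WT 4 h library 1 or 3 or WT control library 1, 2 or 3, or with no filter, DESeq2 or only the compared libraries (adjusted p from 0.0535 to 0.148). Its recovery in TTP-KO cells (0.41 ± 0.15, edgeR adjusted p = 0.0353) ended without TTP-KO 2 h library 2 or 3 or TTP-KO 4 h library 2 or 3, or with no filter, DESeq2 or only the compared libraries (adjusted p from 0.0532 to 0.151). Exosc9 rose from 2 h to 4 h in WT cells (0.54 ± 0.13, edgeR adjusted p = 0.00172), and its 4 h value over control (0.32 ± 0.12, edgeR adjusted p = 0.0466), with overlapping groups, ended without WT 4 h library 1 or 2 or WT control library 1 or 3, or with DESeq2 or only the compared libraries (adjusted p from 0.0533 to 0.205).

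Both exosome nuclease genes on the list were higher at 4 h than in control in WT cells, and Exosc10 also passed from 2 h to 4 h (0.53 ± 0.10, edgeR adjusted p = 0.000107). Exosc10, the nuclear 3′ to 5′ enzyme, had 28.3, 33.3 and 31.5 CPM in TTP-KO control, 33.6, 30.1 and 31.7 CPM at 2 h and 35.5, 33.2 and 33.9 CPM at 4 h. WT libraries had 26.0, 31.1 and 26.8 CPM in control, 30.2, 23.5 and 29.3 CPM at 2 h and 43.1, 39.0 and 37.5 CPM at 4 h. All 3 WT libraries at 4 h were above every other library of both genotypes. The WT rise at 4 h was 0.52 ± 0.10, edgeR adjusted p = 7.05e-05, against 0.14 ± 0.10, edgeR adjusted p = 0.294 in TTP-KO cells, and the test of that difference gave -0.38 ± 0.14, edgeR adjusted p = 0.262. Dis3, which encodes the main nuclease, had 11.1, 7.51 and 11.4 CPM in TTP-KO control, 10.4, 13.0 and 10.7 CPM at 2 h and 13.6, 11.03 and 14.9 CPM at 4 h. WT libraries had 7.28, 8.14 and 8.15 CPM in control, 7.92, 11.6 and 10.4 CPM at 2 h and 13.3, 12.5 and 13.0 CPM at 4 h. Dis3 rose at 4 h in WT cells (0.72 ± 0.17, edgeR adjusted p = 0.00104), where its estimate at 2 h was 0.35 ± 0.18 and did not pass, and the TTP-KO estimate at 4 h (0.41 ± 0.16, edgeR adjusted p = 0.055) came from overlapping groups.

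The 6 nonsense-mediated decay genes did not move as one. The kinase Smg1 and the adaptor Smg5 rose, the helicase Upf1 rose less, and its partners Upf2 and Upf3b fell at 2 h. Smg1 encodes the kinase that phosphorylates UPF1. Its levels were 145, 143 and 138 CPM in TTP-KO control, 223, 223 and 216 CPM at 2 h and 151, 184 and 169.6 CPM at 4 h. In WT cells they were 135, 154 and 149.6 CPM in control, 242, 238 and 257 CPM at 2 h and 169, 168 and 159 CPM at 4 h. No 2 h library came near a control library. The rise at 2 h was 0.63 ± 0.06 in TTP-KO (edgeR adjusted p = 8.24e-10) and 0.75 ± 0.06 in WT cells (edgeR adjusted p = 2.45e-11), the largest of any member at 2 h in WT cells. Smg1 then fell to 4 h in TTP-KO (-0.40 ± 0.06, edgeR adjusted p = 5.57e-06) and WT cells (-0.57 ± 0.06, edgeR adjusted p = 9.18e-09). At 4 h over control it was 0.24 ± 0.06, edgeR adjusted p = 0.00224 in TTP-KO and 0.18 ± 0.06, edgeR adjusted p = 0.018 in WT cells, the WT call ending without WT 4 h library 1 or 2 or WT control library 1 (adjusted p from 0.0618 to 0.126).

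Smg5 encodes a protein that binds phosphorylated UPF1. TTP-KO libraries held 42.8, 43.3 and 45.7 CPM in control, 65.3, 68.6 and 68.6 CPM at 2 h and 66.2, 70.1 and 74.3 CPM at 4 h. WT libraries held 44.9, 36.7 and 48.3 CPM in control, 66.7, 62.3 and 69.6 CPM at 2 h and 69.6, 71.0 and 72.2 CPM at 4 h. Its 12 stimulated libraries all exceeded its 6 control libraries. The change at 4 h was 0.67 ± 0.08 in TTP-KO (edgeR adjusted p = 6.38e-08) and 0.70 ± 0.08 in WT cells (edgeR adjusted p = 2.65e-08), and at 2 h it was 0.62 ± 0.08 in TTP-KO and 0.60 ± 0.08 in WT cells.

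Upf1 rose at 2 h in TTP-KO (0.27 ± 0.07, edgeR adjusted p = 0.00439) and WT cells (0.31 ± 0.07, edgeR adjusted p = 0.000956), and at 4 h in TTP-KO cells (0.39 ± 0.07, edgeR adjusted p = 6.3e-05). Its WT value at 4 h (0.18 ± 0.07, edgeR adjusted p = 0.0481) ended without WT 4 h library 1 or 2 or WT control library 1 or 2, or with no filter, DESeq2, a replicate block or only the compared libraries (adjusted p from 0.0588 to 0.242). Upf2, which joins UPF1 to the exon junction complex through UPF3B, fell at 2 h in TTP-KO cells (-0.46 ± 0.12, edgeR adjusted p = 0.0024) and in WT cells (-0.35 ± 0.11, edgeR adjusted p = 0.0168), the WT call ending without WT 2 h library 1 or WT control library 3, or with DESeq2 or only the compared libraries (adjusted p from 0.0565 to 0.108). It remained lower at 4 h in WT cells (-0.37 ± 0.11, edgeR adjusted p = 0.00719), except without WT control library 3 (adjusted p = 0.0505). In TTP-KO cells Upf2 rose from 2 h to 4 h (0.39 ± 0.12, edgeR adjusted p = 0.0109), except without TTP-KO 2 h library 2 or TTP-KO 4 h library 3 (adjusted p from 0.0558 to 0.102).

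Upf3b had 14.2, 13.8 and 7.78 CPM at 2 h, against 20.7, 16.8 and 17.1 CPM in control, in TTP-KO cells, and 8.74, 12.3 and 12.3 CPM at 2 h, against 22.3, 12.5 and 15.4 CPM in control, in WT cells. The groups did not overlap, by a narrow margin in WT cells, where the controls were the most scattered of the 6 groups for this gene. The decreases (-0.59 ± 0.22, edgeR adjusted p = 0.0443 in TTP-KO and -0.60 ± 0.22, edgeR adjusted p = 0.0454 in WT cells) ended without TTP-KO 2 h library 3 or TTP-KO control library 1, 2 or 3, or with RLE scaling or a replicate block (adjusted p from 0.0505 to 0.177) for TTP-KO and without WT 2 h library 1, 2 or 3 or WT control library 1 or 3, or with RLE scaling, a replicate block or only the compared libraries (adjusted p from 0.0548 to 0.256) for WT cells. Smg6, the endonuclease of the pathway, passed in WT cells from 2 h to 4 h (-0.34 ± 0.12, edgeR adjusted p = 0.0285), a call lost without WT 2 h library 1 or 2 or WT 4 h library 3, or with no filter (adjusted p from 0.0656 to 0.138).

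The promoters of Smg1, Smg5 and Exosc3 are printed because these 3 genes had, with Ddx6, the largest rises at 2 h in both genotypes. They come from the RefSeq promoter table (build GRCm38.p6), in which Ddx6 has no entry. Each window runs 5′ to 3′ on the gene's strand, from 250 bases before the start to 50 bases after it, with every CG dinucleotide in capitals. The files' own build, GRCm39 per the submitters' processing notes, differs, and these coordinates are those of the table.
Smg1 (chr7:118243588-118243887, minus strand): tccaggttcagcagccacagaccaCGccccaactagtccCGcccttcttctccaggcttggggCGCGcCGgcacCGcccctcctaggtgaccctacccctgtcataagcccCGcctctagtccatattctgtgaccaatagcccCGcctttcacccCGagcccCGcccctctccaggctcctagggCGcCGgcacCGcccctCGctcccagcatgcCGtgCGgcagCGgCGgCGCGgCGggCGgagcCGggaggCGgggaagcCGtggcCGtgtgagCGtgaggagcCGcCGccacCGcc
Smg5 (chr3:88336010-88336309, plus strand): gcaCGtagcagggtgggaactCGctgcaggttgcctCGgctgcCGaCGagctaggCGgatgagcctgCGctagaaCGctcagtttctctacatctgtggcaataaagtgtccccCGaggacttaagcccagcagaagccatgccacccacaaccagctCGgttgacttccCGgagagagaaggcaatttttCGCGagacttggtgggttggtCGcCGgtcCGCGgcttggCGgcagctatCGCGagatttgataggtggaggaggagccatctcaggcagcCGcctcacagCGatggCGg
Exosc3 (chr4:45320567-45320866, minus strand): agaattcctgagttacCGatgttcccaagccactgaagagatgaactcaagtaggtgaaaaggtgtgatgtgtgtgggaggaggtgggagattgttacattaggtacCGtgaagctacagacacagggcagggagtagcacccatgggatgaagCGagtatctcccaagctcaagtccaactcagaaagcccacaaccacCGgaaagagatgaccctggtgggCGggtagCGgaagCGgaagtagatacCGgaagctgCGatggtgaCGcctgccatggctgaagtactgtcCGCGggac
Smg1 holds 30 CG dinucleotides, Smg5 23 and Exosc3 12. Over the 42 promoters of the 34 members in the table the median was 25.5 (3 to 49), against 7 over all 32851 promoters (0 to 67). Those promoters belong to 27025 genes and were not limited to the genes tested here, while every member was tested. The same background serves the motifs below, and a comparison with tested genes alone was not made. Motifs were searched as exact letters on both strands. The cyclic AMP response element TGACGTCA was in 1 of 42 member promoters (2.38%, against 1.79% of all), the AP-1 motif TGACTCA in 1 (2.38% against 5.2%), the ETS motif CCGGAAGT in 4 (9.52% against 3.89%), the E-box CACGTG in 3 (7.14% against 7.15%) and the NFAT core GGAAAA in 9 (21.4% against 23.4%). The EGR motif GCGTGGGCG was in none, against 0.612% of all. A motif without a match is only a string that these windows do not contain.

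Per length, the machinery spanned a wide range of levels. CPM per kilobase of the principal transcript, averaged over 18 libraries, ran from 1.24 for Dcp1b to 256.9 for Pabpc1. Next came Lsm4 (71.4), Ddx6 (69.9), Cnot6 (43.6) and Exosc3 (43.5). Within the exosome the cap gene Exosc3 was highest and the nuclease Dis3 lowest (2.11), and within CCR4-NOT the nuclease mRNA Cnot6 exceeded that of the scaffold Cnot1 (6.94). The labels do not say whether reads covered the whole transcript. If they came mainly from the 3′ end, this scale understates long transcripts. Summed over all 43 genes, the level was 2488 ± 12.7 CPM in TTP-KO control libraries, 2836 ± 28.6 CPM at 2 h and 2579 ± 24.8 CPM at 4 h, and 2506 ± 47.7, 2923 ± 73.9 and 2630.3 ± 17.7 CPM in the WT series. TMM factors were 1.094 to 1.134 in control libraries, 0.8721 to 0.8965 at 2 h and 0.9939 to 1.033 at 4 h. The sums, and every fold change over control, rest on this scaling, which raised levels at 2 h relative to control. Without these factors, on library totals alone, the summed level of each stimulated library lay below that of every control library. The Pabpc1 mean at 2 h was then also below the control mean in both genotypes. No test was run on levels without such scaling. Of the mean sum, Pabpc1 gave 724 CPM and Ddx6 424 CPM.

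**Figure D4:**
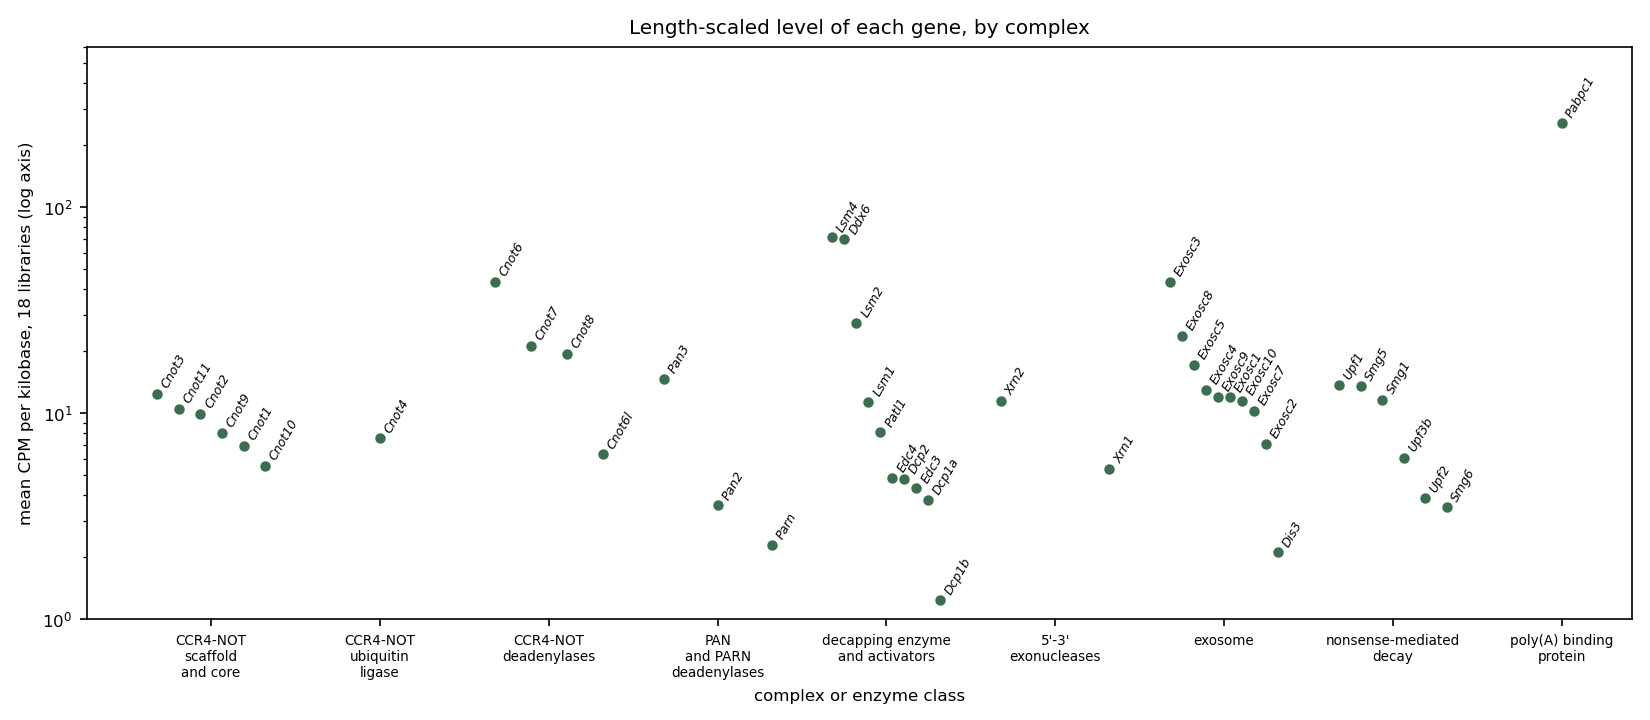
Points are the mean CPM per kilobase of transcript over 18 libraries for each of the 43 genes, on a log axis, grouped by complex or enzyme class. Pabpc1 is highest at 256.9 and Dcp1b lowest at 1.24.

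Between genotypes 2 members passed, 1 at 2 h and 1 at 4 h. In control cells no member passed in TTP-KO over WT cells with edgeR or DESeq2, against 1.65% of all genes, and 5 members had an unadjusted p below 0.05, against 12.9% of all genes. At 2 h 1 member passed, against 2.79%, and 6 had an unadjusted p below 0.05, against 14.9% of all genes. At 4 h 1 member passed, against 5.22%, and 9 had an unadjusted p below 0.05, against 17% of all genes. The median standard error of a member was 0.10 on the log2 scale in each of these comparisons.

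The gene that passed at 2 h was Pabpc1 (-0.17 ± 0.05, edgeR adjusted p = 0.0483), where all 3 TTP-KO libraries lay below the WT libraries. It was also below WT in control (-0.14 ± 0.05, edgeR adjusted p = 0.15) and at 4 h (-0.10 ± 0.05, edgeR adjusted p = 0.244) without passing. The 2 h call ended without WT 2 h library 3 or TTP-KO 2 h library 2 or 3, or with a replicate block or only the compared libraries (adjusted p from 0.0568 to 0.235). At 4 h the gene was Cnot7, with 48.6, 50.2 and 50.5 CPM in TTP-KO and 61.3, 56.0 and 60.3 CPM in WT libraries (-0.25 ± 0.07, edgeR adjusted p = 0.0398). That call ended without any 1 of the 6 libraries compared (adjusted p from 0.0506 to 0.158).

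In control cells the 2 members with the smallest p were Lsm2 and Exosc5. Lsm2 had 24.8, 28.9 and 22.1 CPM in TTP-KO and 19.5, 22.6 and 16.5 CPM in WT control libraries (0.39 ± 0.12, edgeR adjusted p = 0.0998), which overlapped. Exosc5 had 35.2, 33.1 and 35.2 CPM in TTP-KO and 30.5, 26.9 and 27.3 CPM in WT control libraries (0.29 ± 0.09, edgeR adjusted p = 0.136), which did not. The estimates of all 10 exosome genes were positive in control, from 0.05 (Exosc1) to 0.35 (Dis3), with a median of 0.18, against -0.001 over all genes tested. That was so for 8 to 10 of them when libraries were left out, the fewest without TTP-KO control library 3. At 2 h the median was 0.08 with 8 positive, and at 4 h 0.01 with 6 positive, none of them past the threshold.

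Markers of other cell types differed between the genotypes beside these values. The summed level of 9 neutrophil markers was 1650 to 2290 CPM over the 9 TTP-KO libraries and 845 to 1340 CPM over the 9 WT libraries, with 4 of 9 higher in control and 6 of 9 higher at 2 h and at 4 h. The 7 monocyte and macrophage markers summed to 1430 to 1660 CPM in TTP-KO and 1290 to 1370 CPM in WT libraries, with 2, 3 and 4 of them higher in control, at 2 h and at 4 h. The 7 dendritic cell markers, mostly class II genes, summed to 2560 to 2870 CPM in TTP-KO and 3800 to 4280 CPM in WT libraries, with 4 of the 5 tested lower in each condition. B cell markers summed to 20.9 to 28.5 CPM in TTP-KO and 48.1 to 62 CPM in WT libraries, and mast cell markers to 119 to 137 CPM in TTP-KO and 189 to 218 CPM in WT libraries. Of 5 B cell markers 4, 5 and 4 were lower in control, at 2 h and at 4 h. Of 4 mast cell markers tested 2 were lower in each condition, and none of either list was higher. Basophil markers also differed, with 1 of 10 higher and 2 lower in control. At 2 h 1 was higher and 1 lower, and at 4 h 5 were lower and none higher. Over all genes 1.65%, 2.79% and 5.22% were called in control, at 2 h and at 4 h, in either direction. The part of these cells in the genotype values of Pabpc1, Cnot7 and the exosome genes was not tested.

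No member's response to antigen differed between genotypes past the threshold. At 2 h no member passed the interaction test in edgeR or DESeq2, against 0.0497% of all genes, and 2 had an unadjusted p below 0.05, against 6.61% of all genes. For the response at 4 h over control none passed with either tool, against 0.689%, and 8 had an unadjusted p below 0.05, against 10.6%. For the change from 2 h to 4 h none passed with either tool, against 0.313%, and 7 had an unadjusted p below 0.05, against 9.13%. A missed threshold does not show that the responses were equal, since the median standard error of a difference was 0.14 to 0.15 on the log2 scale.

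The members with the smallest interaction p at 2 h were Exosc4 (-0.54 ± 0.15, edgeR adjusted p = 0.324) and Exosc7 (-0.49 ± 0.21, edgeR adjusted p = 0.67). Exosc7 had 10.4, 11.3 and 12.8 CPM in TTP-KO control and 9.55, 7.88 and 8.25 CPM at 2 h, and 9.6, 10.1 and 10.7 CPM in WT control and 10.9, 10.6 and 10.1 CPM at 2 h, so that TTP-KO libraries at 2 h lay below all others. At 4 h they were Cnot7 (-0.35 ± 0.10, edgeR adjusted p = 0.143) and Exosc10 (-0.38 ± 0.14), and from 2 h to 4 h Exosc10 (-0.43 ± 0.14, edgeR adjusted p = 0.284) and Exosc4 (0.41 ± 0.15, edgeR adjusted p = 0.352). For 9 of 10 exosome genes the 4 h response was smaller in TTP-KO than in WT cells, and none of these differences passed. The median difference of the 10 genes was -0.25, against 0.005 over all genes tested. This value is not separate from the control comparison, whose libraries it shares. Between genotypes the median of the 10 genes was 0.18 in control and 0.01 at 4 h.

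Set side by side, the 2 h fold changes of the 43 genes had a Pearson correlation of 0.858 between TTP-KO and WT cells, against 0.56 over all genes tested, and 37 of 43 had the same sign (86%, against 78.3% of all genes). The 2 sets of libraries share none, but genes are not independent replicates, so this is a description. The correlation over all genes includes low-count genes that passed the filter, and no set matched to the members for level was compared. Of the calls at 2 h, 12 were shared, 63.2% of those in TTP-KO and 70.6% of those in WT cells, against 77.2% and 75.8% over all genes. At 4 h the correlation was 0.773, against 0.543 over all genes, with 35 of the same sign (81.4%, against 78.7%). There 8 calls were shared, 66.7% of those in TTP-KO and 42.1% of those in WT cells, against 76.3% and 70.4% over all genes. From 2 h to 4 h it was 0.756, against 0.436, with 33 of the same sign (76.7%, against 77.2%) and 8 shared calls, 61.5% of those in TTP-KO and 57.1% of those in WT cells, against 68.6% and 67.8%. No member was called in opposite directions. The 12 shared at 2 h were Ddx6, Smg1, Smg5, Exosc3, Upf1 and Pabpc1, which were higher, and Cnot6l, Dcp2, Xrn1, Exosc8, Upf2 and Upf3b, which were lower.

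**Figure D5:**
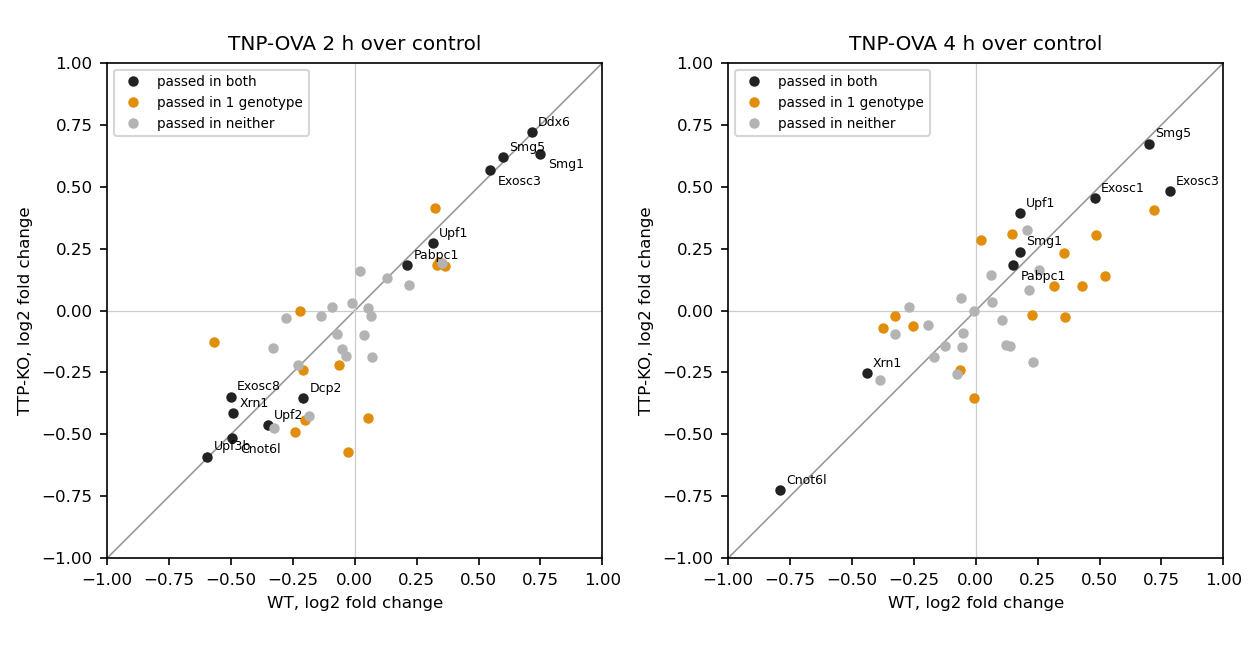
Log2 fold change of each of the 43 genes in TTP-KO cells (vertical axis) against WT cells (horizontal axis), at 2 h over control (left) and 4 h over control (right); black points passed in both genotypes and are named, orange points passed in 1. The diagonal marks equal change, and points lie along it with 37 of 43 genes of the same sign at 2 h and 35 at 4 h.

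Genes that work with this machinery but are not on the list were counted beside it. At 2 h the shares of all genes called were 17.8% higher and 16.6% lower in TTP-KO cells, and 17.8% higher and 17.3% lower in WT cells. Of 16 other nonsense-mediated decay and exon junction genes, 7 rose and none fell at 2 h in TTP-KO cells, and 8 rose and none fell in WT cells. Dhx34 (1.31 ± 0.11) and Magohb (0.88 ± 0.16) had the largest WT changes. Of 23 tested genes for mRNA-specific recruiters and endonucleases, 13 rose and 1 fell at 2 h in each genotype, among them the TTP relative Zfp36l1 (1.64 ± 0.05 in TTP-KO and 1.32 ± 0.05 in WT cells) and Zfp36 (1.33 ± 0.05 in TTP-KO and 0.92 ± 0.05 in WT cells). Samd4 had the largest WT estimate of that list (2.40 ± 0.66), from overlapping groups. From 2 h to 4 h, 1 recruiter rose and 11 fell in TTP-KO cells, and 2 rose and 12 fell in WT cells, while 14.6% of all genes were higher and 16.2% lower in TTP-KO cells and 15.2% higher and 15.9% lower in WT cells.

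Deadenylase partners and poly(A)-binding genes went both ways, with 11 higher and 6 lower of 25 at 2 h in TTP-KO cells and 10 higher and 6 lower in WT cells. Noct, a rhythmically expressed member of the Ccr4 nuclease family, averaged 160.4 ± 8.81 CPM at 2 h and 39.8 ± 4.68 CPM in control in TTP-KO cells, and 148 ± 9.13 CPM at 2 h and 38.0 ± 3.96 CPM in control in WT cells. Btg1, whose product binds the CNOT7 and CNOT8 nucleases, rose by 1.07 ± 0.04 in TTP-KO and 0.97 ± 0.04 in WT cells, and Pde12, a mitochondrial poly(A) phosphodiesterase, by 0.61 ± 0.09 in TTP-KO and 0.81 ± 0.09 in WT cells. Of 14 other decapping and LSm genes none rose at 2 h, while 2 fell in TTP-KO and 4 in WT cells, with Nudt16 (-0.78 ± 0.13), Lsm6 (-0.47 ± 0.09) and Lsm8 (-0.34 ± 0.08) the largest WT decreases.

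Of 18 exosome cofactors and relatives, 3 rose and 4 fell at 2 h in each genotype, near the shares over all genes. Exosc6, the ring subunit missing from the 43, fell at 2 h in TTP-KO (-2.47 ± 0.39, edgeR adjusted p = 8.8e-05) and WT cells (-1.36 ± 0.37, edgeR adjusted p = 0.00928) and rose again to 4 h. Its levels were low, with 12.8 ± 4.23 CPM in control and 2.33 ± 0.763 CPM at 2 h in TTP-KO cells. In WT cells they were 8.85 ± 2.69 and 3.47 ± 0.98 CPM. The related poly(A) polymerase genes Tent4a and Tent4b, whose products add tails that the exosome can use, moved apart. Tent4a rose in TTP-KO (0.93 ± 0.22) and WT cells (1.22 ± 0.22), and Tent4b fell in TTP-KO (-0.67 ± 0.11) and WT cells (-0.57 ± 0.11).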

How the data were processed

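Gene expression was measured by sequencing polyadenylated RNA of basophils in 18 libraries. The values used are the estimated counts per gene as deposited by the authors in 1 table. Per the submitters' processing notes, the tools included cutadapt 3.5, STAR 2.7.10a and RSEM 1.3.1, with the mouse build GRCm39. No source used here gives the strand setting, so reads of overlapping or antisense genes cannot be told apart. The table's unstimulated columns were matched to the control OVA libraries, the only unstimulated ones in each genotype.

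Counts were rounded to whole numbers, filtered with filterByExpr on the 6 groups, scaled by TMM and tested in R 4.3.3 with the robust quasi-likelihood F test of edgeR 4.0.16. All 18 libraries entered 1 fit with 12 residual degrees of freedom, with Benjamini-Hochberg adjustment over 14076 genes and a threshold of 0.05. Every ± beside a log2 fold change is a standard error and every ± beside a CPM is an SD of 3 libraries. Alternatives were RLE scaling, no filter, DESeq2 1.42.0, only the compared libraries, a replicate block and each library left out. No pair of libraries of a group agreed within sampling noise (18 pairs, with chi-square divided by its degrees of freedom at 3.01 to 7.28). Counting and mapping errors shared by all libraries are not covered.

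Values of each library are given for the up to 6 members with the largest changes past the threshold in WT cells at 2 h and at 4 h, for members past the threshold between genotypes or in an interaction (the 2 smallest p where none passed), and for the 2 most abundant. The 43 members, the other decay lists and the markers were chosen with earlier results of these data known. 3′ UTRs were read from GENCODE M21 on GRCm38, and promoters from the RefSeq table of GRCm38.p6, in which 34 of 43 members matched.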

Additional observations from a re-analysis of the deposited data

How the results depend on the processing

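None of the 96 calls reversed under any alternative, and 52 of them held in all. Of the 44 others, each lost without some library, 29 were also lost under another alternative. At 2 h the single genotype call, Pabpc1, left 0 members called with a replicate block and 0 with only the compared libraries, and 0 to 1 when libraries were left out one at a time. At 4 h the single call, Cnot7, became 0 without each library. The count for WT cells at 4 h over control ran from 11 to 17 without single libraries, and that for TTP-KO cells from 2 h to 4 h ran from 8 to 11, with 8 under DESeq2. Other counts of calls stayed within 1.5 times, namely 15 to 18 for TTP-KO and 13 to 17 for WT cells at 2 h, 9 to 12 for TTP-KO cells at 4 h, and 10 to 13 for WT cells from 2 h to 4 h. Replicate numbers did not pair the libraries: of 45 same-numbered pairs across groups 0 had a correlation of deviations above 0.1 (-0.0814 to 0.0408), and 4 of 18 libraries correlated best with their own number. With the block, WT cells had 10 higher and 5 lower members at 2 h, and 13 higher and 6 lower at 4 h. Depth limits Dcp1b most, with 13.0 to 59.0 estimated counts per library.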
